A study of Mus musculus with 24 samples.

Results

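The genes described here are 48 listed genes of the cell cycle and of DNA replication, read in sorted mouse leukocytes around pancreatic islet inflammation. Of these, 44 had a probe set that the platform annotation ties to 1 gene, out of 8251 genes measured in this way. Ccnb1, Cdc25b, Bub1b and Tyms had none. Where a gene had several probe sets, which was so for 13 members, the probe set with the highest mean log2 intensity over all 24 arrays stood for it. The members are a list of gene names.

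RNA was hybridised to 24 oligonucleotide arrays in 10 groups, made of 5 cell populations on 2 genetic backgrounds. The first background is C57Bl/6 carrying the H2g7 haplotype (B6g7 below), in which the labels describe an aggressive insulitis, the leukocyte infiltration of the islets. The second is NOD, the strain that develops autoimmune diabetes, in which the labels describe a benign form. Total pancreatic infiltrates (CD45+, viable by exclusion of Hoechst dye; 3 arrays for each background) and T cells came from mice with the BDC2.5 transgene, which encodes a T cell receptor that recognises an islet antigen. The T cells were CD4+ and high for the BDC2.5 clonotype. Pancreatic T cells were also sorted on CD45 and had 2 B6g7 and 3 NOD arrays, as had T cells of the draining pancreatic lymph node. Total splenic leukocytes (CD45+, viable) and splenic NK cells (Asialo GM1+ CD45+, viable) had 2 arrays for each background. The B6g7 NK cells had no transgene, and of the NOD NK cells only array 2 names BDC2.5. For the spleens no transgene is named.

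B6g7 infiltrates came from mice of 25, 28 and 24 days, and all NOD infiltrates from mice of 25 days. B6g7 T cells of both sites came from mice of 25 and 22 days. NOD T cells came from mice of 24, 24 and 25 days (pancreas) and 24, 22 and 25 days (lymph node). The B6g7 NK cells came from mice of 6 weeks (array 1) and 3 weeks (array 2). Ages of the NOD NK cells and of the spleens are not in the labels. Whether a group's arrays stem from separate mice or from pools is not in the labels, so the tests measure the spread between these arrays.

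A dividing cell passes through S phase, when its DNA is copied, and through mitosis, when the copies are separated. Genes of the replication machinery are transcribed from late G1 into S phase, to a large part under E2F factors. Genes of the spindle, the mitotic kinases and their cyclins peak later, in G2 and mitosis, under the MuvB complex with B-Myb and FOXM1, which acts through an element called CHR together with CCAAT boxes bound by NF-Y. In lymphoid organs most lymphocytes rest, while lymphocytes that meet their antigen divide rapidly. NK cells divide in young animals and under cytokines. In RNA of many cells, a smaller share of dividing cells and less RNA per cell cannot be told apart.

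The promoters of 6 members are shown because 3 of them hold CHR matches and the other 3 an E2F match. They run from 160 bases before the annotated start to 30 after it, 5′ to 3′ on the gene's strand, and come from RefSeq on mouse assembly GRCm38.p6. Capitals mark matches on either strand to E2F (TTTCCCGC or TTTGGCGC), CCAAT, or CHR (TTTGAA or TTCGAA).
Ccnb2: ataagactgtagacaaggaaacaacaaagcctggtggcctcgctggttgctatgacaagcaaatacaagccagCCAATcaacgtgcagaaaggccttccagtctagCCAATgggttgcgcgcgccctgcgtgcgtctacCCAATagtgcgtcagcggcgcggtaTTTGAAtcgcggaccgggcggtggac
Cdk1: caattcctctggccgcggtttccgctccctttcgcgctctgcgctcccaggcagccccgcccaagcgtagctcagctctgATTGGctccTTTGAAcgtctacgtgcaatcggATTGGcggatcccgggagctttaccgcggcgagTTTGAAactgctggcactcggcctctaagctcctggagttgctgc
Cenpa: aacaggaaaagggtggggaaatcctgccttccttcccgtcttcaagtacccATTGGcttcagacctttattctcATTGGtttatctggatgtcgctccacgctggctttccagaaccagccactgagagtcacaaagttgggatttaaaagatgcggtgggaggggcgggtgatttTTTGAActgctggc
Cdc6: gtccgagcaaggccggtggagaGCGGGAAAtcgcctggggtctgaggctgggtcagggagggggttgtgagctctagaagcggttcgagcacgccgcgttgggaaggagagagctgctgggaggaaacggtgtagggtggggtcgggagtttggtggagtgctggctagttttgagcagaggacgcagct
Mcm5: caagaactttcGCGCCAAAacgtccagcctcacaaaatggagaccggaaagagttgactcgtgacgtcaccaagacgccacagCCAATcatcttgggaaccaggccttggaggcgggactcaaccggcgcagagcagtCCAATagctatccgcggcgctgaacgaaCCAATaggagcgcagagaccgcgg
Ezh2: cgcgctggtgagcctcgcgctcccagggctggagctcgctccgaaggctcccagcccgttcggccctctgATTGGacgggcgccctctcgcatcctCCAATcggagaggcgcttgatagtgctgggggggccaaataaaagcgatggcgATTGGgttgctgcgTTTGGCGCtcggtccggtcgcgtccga
In this order they lie at chr9:70421525-70421714 (minus strand), chr10:69352883-69353072 (minus strand), chr5:30666726-30666915 (plus strand), chr11:98907991-98908180 (plus strand), chr8:75109349-75109538 (plus strand) and chr6:47595001-47595190 (minus strand). Ccnb2, Cdk1 and Cenpa encode a mitotic cyclin, the kinase it activates and the histone H3 variant of centromeres, and their stretches hold CCAAT and CHR matches but no E2F match. Cdc6 and Mcm5 encode a loader and a subunit of the replicative helicase, and Ezh2 the methyltransferase of Polycomb complex 2, and theirs hold an E2F match but no CHR match.

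These 6 were picked for their matches, and in the member list the division was partial. Over windows of 250 bases before to 50 after the start, 41 of the 48 listed genes had at least 1 window, 45 windows in all. Stmn1, Aurkb, Ccne2, Mcm4, Ccna2, Cdc25c and Kif20a had none. An E2F match stood in 6 of 19 S phase genes (31.6%) and in 0 of 18 mitosis genes, against 1.80% of all 27025 genes in the table. A CHR match stood in 4 of 19 S phase genes (21.1%) and in 12 of 18 mitosis genes (66.7%), against 21.7% of all genes. CCAAT was found in 57.9% of the S phase genes, 77.8% of the mitosis genes and 41.1% of all genes. CHR and CCAAT occurred together in 15.8% of the S phase genes, 61.1% of the mitosis genes and 8.61% of all genes. Here S phase genes are the members for replication, nucleotide supply and S phase entry, and mitosis genes are those for mitotic kinases and cyclins, the spindle checkpoint and the spindle. Mki67, Top2a, Hmgb2 and Ezh2 are in neither set. The matches are letters in a window, and nothing in these data measures binding to them. The windows of the members were richer in G and C (median 57.7%) than all windows (52.7%).

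Several features of the arrays bear on what follows. RNA was amplified in 2 rounds for every population but splenic leukocytes, which had 1 round, so amplification and population cannot be told apart in comparisons with spleen. Bias towards the 3′ end, read as the Gapdh 3′ control minus the 5′ control in log2, ran from 0.21 to 0.37 in the spleens, 2.56 to 3.65 in the infiltrates, 2.78 to 4.87 in the T cells and 4.32 to 5.27 in the NK cells. Liver transcripts (Alb above a log2 intensity of 6) were present in 6 arrays, namely B6g7 infiltrates 1 and 2 and array 1 of each T cell group. Marker sums differed between the labelled cell types, with overlaps. The 6 measured T cell markers summed to an intensity of 1285 to 2539 in sorted T cells. They gave 963 to 1849 in spleens, 705 to 1084 in infiltrates and 353 to 1071 in NK cells. The 6 B cell markers summed to 6047 to 6887 in spleens, 2275 to 2894 in infiltrates, 1024 to 1846 in NK cells and 276 to 385 in T cells. The 5 NK markers summed to 1362 to 2751 in NK cells, 271 to 1354 in infiltrates, 291 to 634 in spleens and 124 to 230 in T cells. Intensities near 4.36 (log2) or below were read as the level of absent transcripts, since Fabp1, a liver gene, took values of 3.22 to 4.36 where liver transcripts were missing (18 arrays). Of the 44 members, 30 had a mean above this level in every group and 5 (Mcm6, Ccne2, Bub1, Cenpe and Tacc3) lay at or under it in all 10 groups.

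Each member took its highest population mean most often in NK cells or infiltrates. By the mean of the 2 background means, the highest population was NK for 23 members, infiltrate for 12, lymph node T cells for 5 and spleen for 4, with pancreatic T cells highest for 0. Spleen was lowest for 29 members, pancreatic T cells for 8, lymph node T cells for 5 and NK cells for 2. The 5 members highest in lymph node T cells were Mcm2, Mcm3, Mcm4 and Prim1, which act at the replication fork or its origin, and Ezh2. Those highest in spleen were Mcm5, Mcm7, Fen1 (the flap endonuclease that trims Okazaki fragments) and Hmgb2 (a DNA-bending chromatin protein). Many of these orders rest on differences within the spread of the arrays, and the tests follow. In all, 30 members passed an adjusted p of 0.05 in at least 1 of 15 comparisons and 14 in none: Mcm2, Mcm3, Mcm4, Mcm5, Mcm6, Pcna, Lig1, Tk1, Ccne1, Ccne2, Cdc20, Ube2c, Cenpe and Hmgb2.

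**Figure D1:**
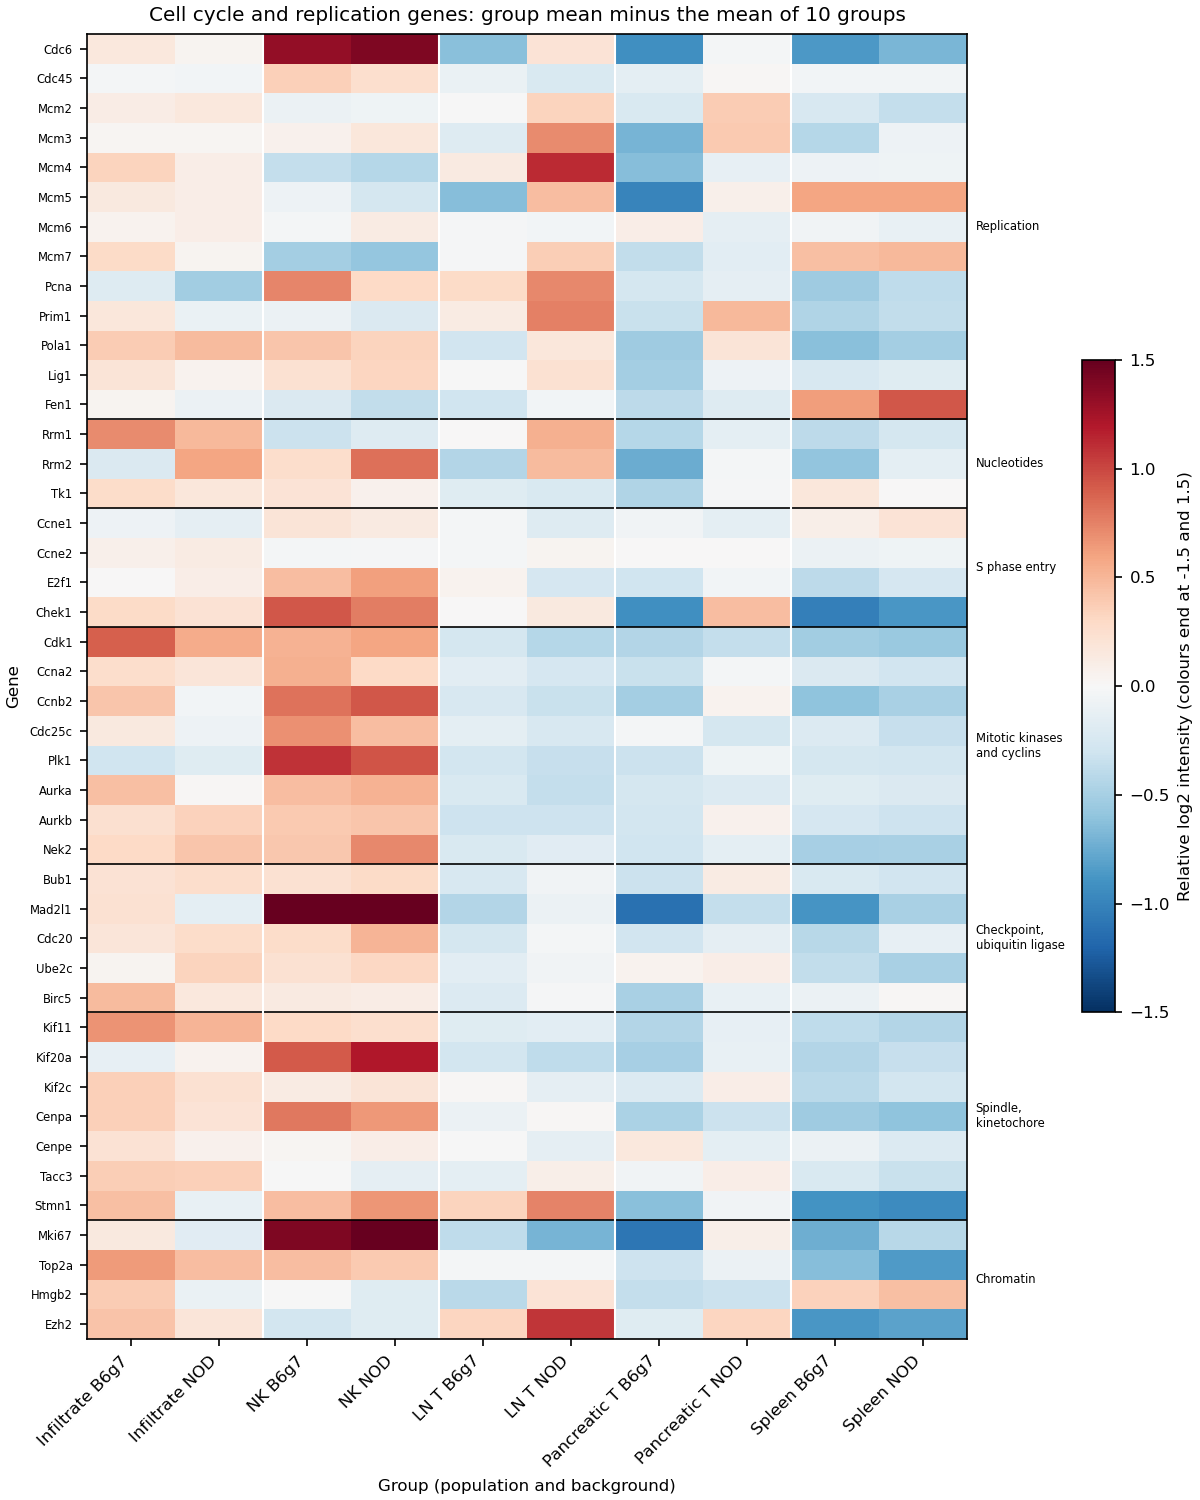
Heat map of 44 genes (rows, in blocks by role) over 10 groups (columns); colour is the group mean log2 intensity minus the mean of the 10 group means of that gene, with colours ending at -1.5 and 1.5. Mitosis genes are mostly red in the NK cell and infiltrate columns, and the spleen columns are mostly blue, with Mcm5, Mcm7, Fen1 and Hmgb2 in red.

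S phase and mitosis genes were set side by side in each array. To place genes on a common scale, each array's log2 value was taken relative to the mean of the gene's 10 group means, and the median was read over the 20 measured S phase genes and over the 20 measured mitosis genes. In the 4 NK arrays the mitosis median exceeded the S phase median by 0.17 to 0.48, and in the 6 infiltrates by 0.02 to 0.34. It was below the S phase median in lymph node T cells (-0.64 to -0.01, closest to 0 in B6g7) and in the spleens (-0.27 to -0.03). Pancreatic T cells lay on both sides (-0.23 to 0.15). The zero of this scale is the mean over the groups, so positive values in some populations bring negative ones in others, and the sign gives no order of the genes within a population. These are descriptions of a list with members at different depths, and carry no test.

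**Figure D2:**
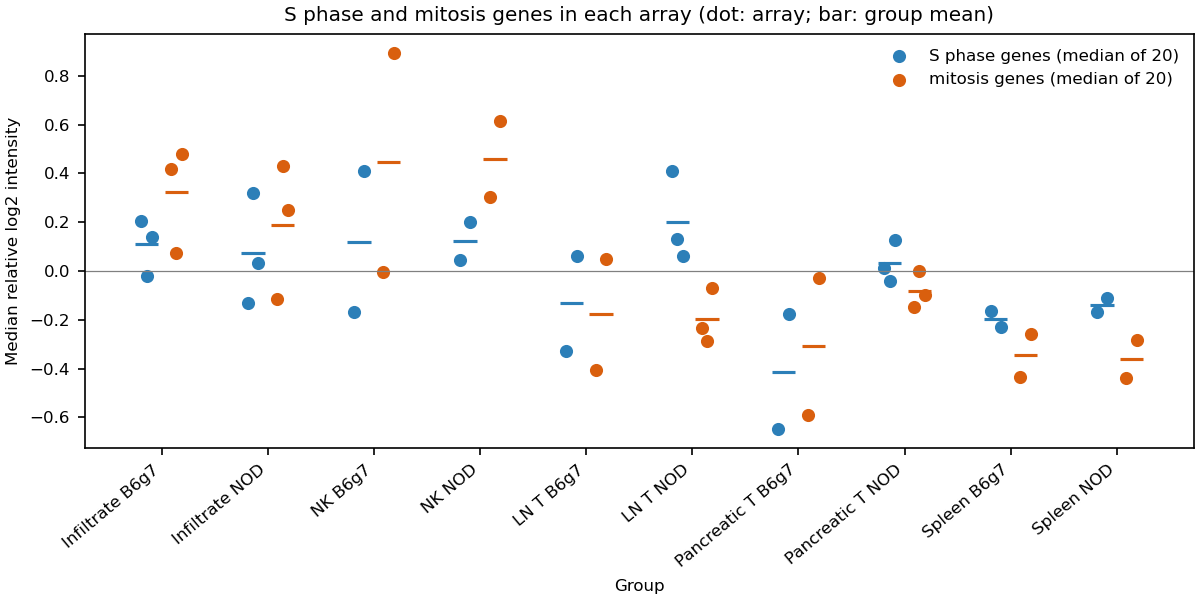
Median relative log2 intensity (vertical axis) of 20 S phase genes and 20 mitosis genes in each array, by group (horizontal axis); each dot is an array and each bar the group mean. The mitosis dot is above the S phase dot in all NK and infiltrate arrays and below it in all lymph node T cell and spleen arrays.

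Many mitosis genes were higher in NK cells than in lymph node T cells or spleen. Against lymph node T cells, averaged over both backgrounds, 13 members were higher and 2 lower in NK cells (adjusted p under 0.05, limma), where 17.3% of all genes passed in either direction and 7.03% in the higher and 10.2% in the lower direction. The median log2 difference was 0.39 over the 44 members and 0.03 over all genes. Of the 20 mitosis genes 9 were higher and 0 lower (median 0.67), and of the 20 S phase genes 3 were higher and 1 lower (median 0.05). Against spleen, 21 members were higher and 2 lower, with 24.2% of all genes passing in either direction, 10.1% higher and 14.2% lower. With runs of adjacent serial codes of the array descriptions as a random block, 8 members passed against spleen and 9 against lymph node T cells. For that fit no share of all genes is given here. In the comparison with spleen the median was 0.67 over members and 0.05 over all genes, and 14 of 20 mitosis genes were higher. Both comparisons share the NK arrays.

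Among the checkpoint genes, Mad2l1, whose protein holds back anaphase until all chromosomes are attached, had the clearest difference. It lay at 7.47 and 8.14 in B6g7 NK cells and 7.67 and 7.82 in NOD NK cells (log2 intensity). Lymph node T cells held 4.93 and 6.43 (B6g7) and 6.37, 5.70 and 6.05 (NOD), and spleens lay at 5.24, 5.23, 5.62 and 5.66. All 4 NK arrays were above every T cell and spleen array. The log2 difference was 1.91 (SE 0.29) against lymph node T cells, a 3.77-fold higher level (limma adjusted p = 0.000231). Against spleen it was 2.34 (SE 0.31; limma adjusted p = 2.04e-05). Bub1, the kinase of the same checkpoint, was higher against spleen only by values at the level of absent transcripts (0.52, SE 0.17; limma adjusted p = 0.035). Cdc20 and Ube2c, the activator and the ubiquitin-conjugating enzyme of the anaphase-promoting complex, and Birc5 (survivin, of the chromosomal passenger complex) did not pass, at 0.54, 0.37 and 0.24 against lymph node T cells.

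All 8 measured mitotic kinases, cyclins and phosphatases were higher in NK cells than in spleen, with a median of 0.96, and 7 of them were higher than in lymph node T cells. Under the serial code block only Plk1 and Nek2 of these 8 passed against spleen. Plk1, the polo kinase that drives entry into mitosis, lay at 7.38 and 8.56 (B6g7) and 7.52 and 8.13 (NOD) in NK cells, while lymph node T cells held 6.73, 6.48, 6.28, 6.33 and 6.99 and spleens 6.45, 6.78, 6.45 and 6.76. No NK array overlapped with either. The log2 difference was 1.33 (SE 0.26) from T cells and 1.28 (SE 0.28) from spleens, with limma adjusted p of 0.00218 and 0.00219. Its other 2 probe sets gave 0.09 and 0.30 against T cells and did not pass, so the size rests on the brightest probe set. Ccnb2, cyclin B2, lay at 7.34, 8.65, 7.69 and 8.53 in NK cells and 6.62 to 7.02 in lymph node T cells, without overlap (1.16, SE 0.28; limma adjusted p = 0.00806). Cdk1, the kinase that mitotic cyclins activate, lay at 5.90, 7.09, 6.37 and 6.76 in NK cells and 5.14, 6.27, 5.57, 5.47 and 5.60 in lymph node T cells. The groups overlapped here through the first B6g7 NK and the second B6g7 T cell array, and the difference was 0.90 (SE 0.29; limma adjusted p = 0.0406). Aurkb, Nek2, Aurka and Cdc25c, 3 mitotic kinases and the phosphatase that switches on Cdk1, were higher by 0.71, 0.76, 0.78 and 0.77. For Aurka the T cell values were at the level of absent transcripts, and the NK mean, at 4.38, was close to it. Ccna2, cyclin A2, gave 0.62 against T cells without passing and was higher by 0.67 (SE 0.22) against spleen.

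Kif20a, a kinesin of cytokinesis, was higher in NK cells in both comparisons. Its NK values were 6.21 and 7.07 (B6g7) and 6.89 and 6.95 (NOD). All of its lymph node T cell values lay between 5.03 and 5.62, and all spleen values between 5.15 and 5.43. The difference from T cells was 1.40 (SE 0.18; limma adjusted p = 5.19e-05) and from spleen 1.46 (SE 0.19; limma adjusted p = 2.11e-05). Its dimmer probe set gave 0.42 and 0.40 and did not pass. Cenpa, Stmn1 (stathmin, which destabilises microtubules) and Kif11 (the kinesin that separates spindle poles) were higher in NK cells than in spleen by 1.29, 1.48 and 0.69. Against lymph node T cells these 3 gave 0.75, 0.03 and 0.45 and did not pass. Kif2c, Cenpe and Tacc3, all of the spindle or kinetochore, passed in neither comparison.

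Mki67, the gene of the Ki-67 antigen that coats mitotic chromosomes and marks cycling cells, had the largest log2 difference from lymph node T cells among members. Its NK values were 5.45 and 7.80 (B6g7) and 6.40 and 7.74 (NOD). Lymph node T cells held 4.49, 5.19, 4.87, 3.96 and 4.74, and spleens 4.61, 4.38, 4.89 and 4.73. NK arrays were above all of these, and they differed among themselves by more than any other member named here. The difference was 2.17 (SE 0.49; limma adjusted p = 0.00599) from T cells and 2.20 (SE 0.52; limma adjusted p = 0.00445) from spleen. A second, dimmer probe set of Mki67 gave 0.50 and 0.54. Top2a, the topoisomerase that untangles replicated chromosomes, lay at 5.23, 6.82, 5.59 and 6.31 in NK cells and 4.69 to 4.94 in spleens, and was higher by 1.17 (SE 0.35; limma adjusted p = 0.0223). From lymph node T cells (5.01 to 6.05) it differed by 0.46, and the groups overlapped.

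Replication genes went both ways in NK cells. Cdc6 lay at 5.77 and 8.08 (B6g7) and 6.55 and 7.45 (NOD) in NK cells, whereas lymph node T cells held 4.32, 5.64, 6.01, 5.77 and 5.62. The first B6g7 NK array lay within the T cell range and the other NK arrays above it (1.57, SE 0.36; limma adjusted p = 0.0058). From spleens (4.73, 4.75, 4.78 and 5.06) it differed by 2.13 (SE 0.37; limma adjusted p = 0.000378). E2f1, the transcription factor of S phase genes, was higher by 0.64 (SE 0.18) against T cells and 0.86 (SE 0.19) against spleen, from NK values of 5.35, 5.91, 5.74 and 5.81. Its dimmer probe set gave 0.02 against T cells. Cdc45, a helicase cofactor, was higher than in T cells by 0.46, and Chek1, the replication checkpoint kinase, was higher than in spleen by 1.80 (SE 0.28; limma adjusted p = 0.000101). Pola1 and Rrm2, of DNA polymerase alpha and ribonucleotide reductase, were higher than in spleen by 0.95 and 0.92, with Pola1 at the level of absent transcripts in spleens. Mcm7, a helicase subunit, was lower in NK cells, at 6.13, 6.61, 6.22 and 6.39 against 7.48, 7.19, 7.46 and 7.28 in spleens (-1.02, SE 0.22; limma adjusted p = 0.00215). Lymph node T cells held 6.39, 7.34, 7.29, 7.39 and 7.07 of it (-0.72, SE 0.21). Fen1 was lower than in spleen by 1.07, to values at the level of absent transcripts. Pcna, the sliding clamp, showed no difference of NK cells from T cells that passed (0.01, 95% interval -0.93 to 0.96), at 8.48, 9.18, 8.46 and 8.34 against 7.78 to 9.36.

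**Figure D3:**
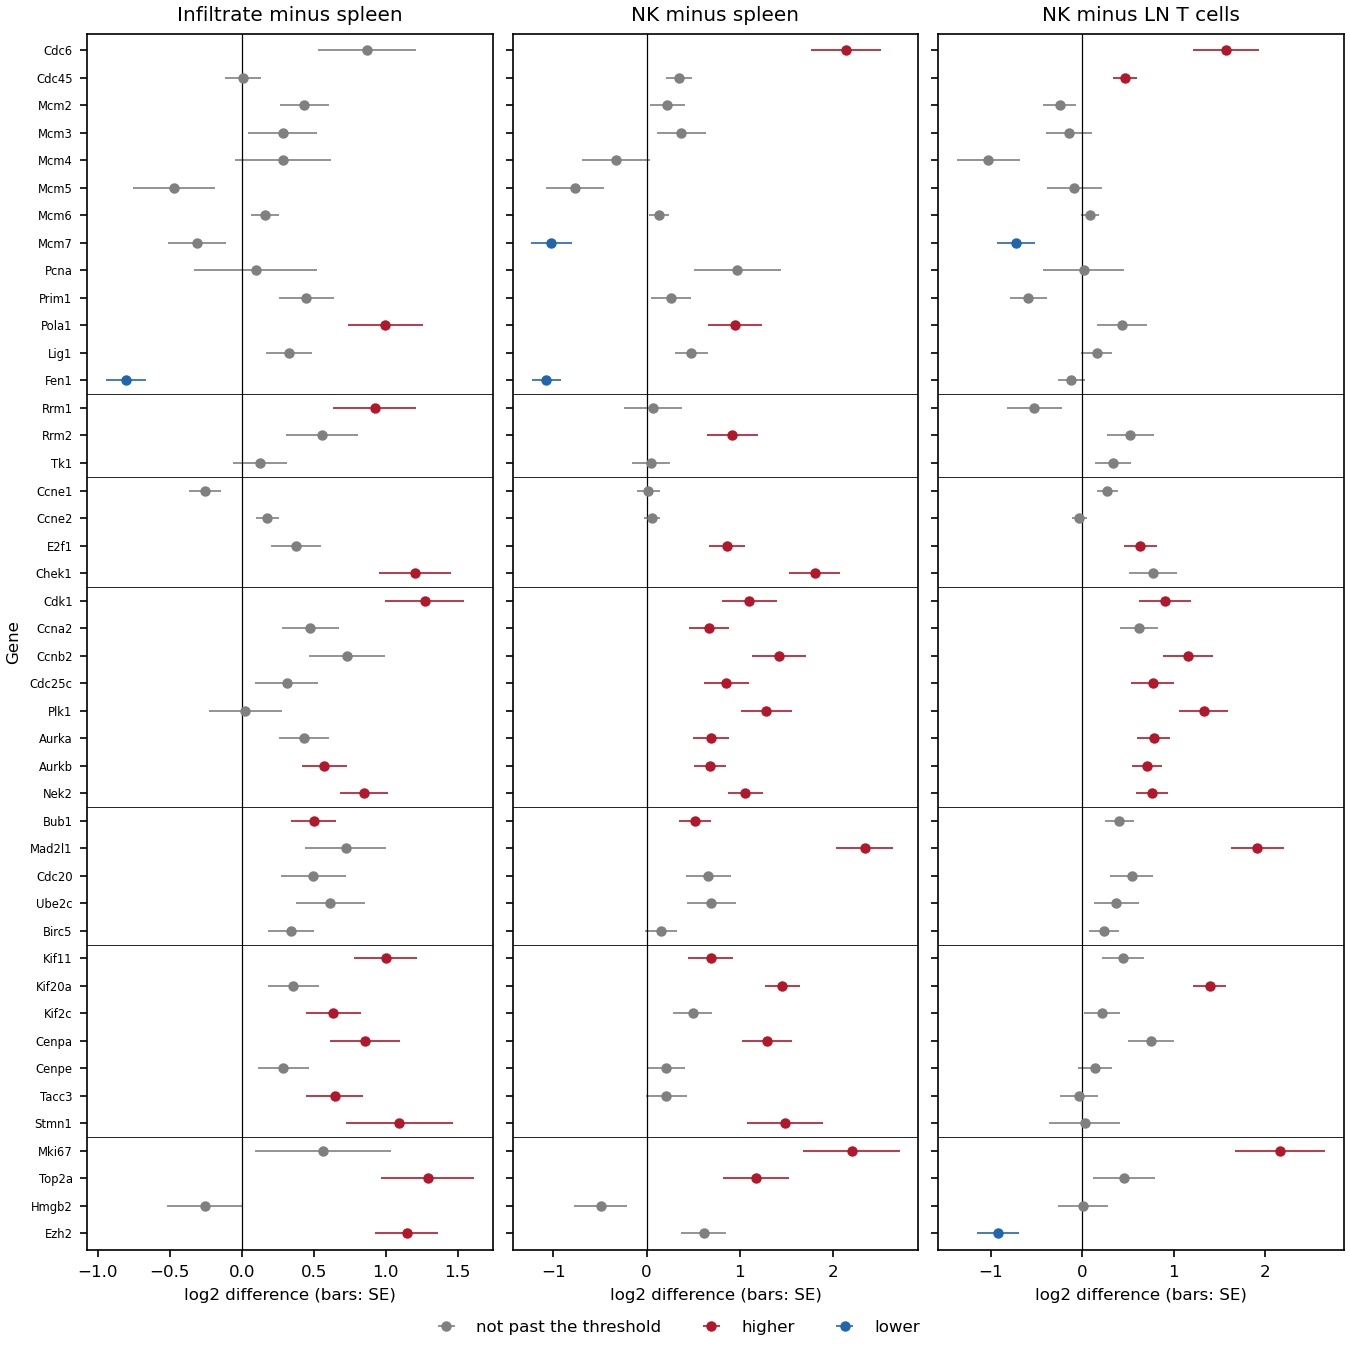
Log2 difference (horizontal axis; bars are the SE of the limma fit) of 44 genes (vertical axis, in blocks by role) in 3 comparisons; red and blue mark genes past an adjusted p of 0.05, grey the others. Red points are concentrated in the blocks of mitotic kinases, checkpoint, spindle and chromatin, and blue points are Mcm7, Fen1 and Ezh2.

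The NK result leaned on the second array of each background. Of the 44 members 42 were higher in B6g7 NK array 2 (3 weeks of age) than in array 1 (6 weeks), with a median gap of 0.65, and 38 were higher in NOD array 2 than in array 1 (median 0.25). Of all genes 52.5% and 47.7% were higher in these second arrays (medians 0.01 and -0.01). Markers of some other cell types moved with the members. The 8 granulocyte markers summed to 2439 and 9143 in the B6g7 and 409 and 20850 in the NOD NK arrays, against 234 to 308 in lymph node T cells and 575 to 2899 in spleens. The 5 measured erythroid markers summed to 1241 and 3107 and to 849 and 5903, and the 7 macrophage markers to 767 and 1945 and to 764 and 2320. Markers of NK cells fell from array 1 to array 2, from 2751 to 1550 (B6g7) and from 1900 to 1362 (NOD). T cell markers fell as well, from 854 to 353 and from 1071 to 485. So did plasma cell markers, from 373 to 301 and from 576 to 470. Against lymph node T cells 6 of 8 granulocyte, 3 of 5 erythroid, 6 of 7 macrophage, 5 of 6 B cell and 3 of 4 plasma cell markers were higher. The B cell markers summed to 1024 to 1846 in NK arrays and 276 to 360 in lymph node T cells. The part of these cells in the NK differences was not tested. Without the second NK arrays, an alternative chosen after seeing the data, 3 members passed against lymph node T cells: Mad2l1 (1.71; limma adjusted p = 0.0111), Kif20a (1.17; 0.00236 in the same fit) and Ezh2, which was lower. Mki67 then gave 1.24 (limma adjusted p = 0.2) and Plk1 0.88 (limma adjusted p = 0.0885). Against spleen 8 members passed in that fit, with Cdc6, Chek1, Nek2, Mad2l1, Kif20a and Cenpa higher and Mcm7 and Fen1 lower. With the 3′ bias of Gapdh as a covariate Mad2l1 alone passed against lymph node T cells, and Pcna alone against spleen. Pcna was not among the members called against spleen without the covariate. Shares of all genes passing in these alternative fits are not given here, and leaving out the second NK arrays left 1 for each background. Whether the lower counts concern the members or genes at large cannot be read from them.

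Some mitosis genes were higher in infiltrates than in spleen. Averaged over backgrounds, 14 members were higher and 1 lower in infiltrates than in splenic leukocytes (limma), where 20.4% of all genes passed in either direction, 10.1% higher and 10.3% lower. The 15 calls fell to 0 with serial code runs as a random block, and 8 members passed without the second B6g7 spleen. With the Gapdh covariate 2 members passed, Mcm4 and Pcna, and neither is among the 15. The shares of all genes passing in these alternative fits are not given here. Of the 44 members 39 lay above 0, with a median of 0.46 against 0.03 for all genes, and all 20 mitosis genes lay above 0 (9 passed). Cdk1 lay at 6.99, 6.60 and 7.02 in B6g7 and 5.94, 6.76 and 6.87 in NOD infiltrates, and at 5.29, 5.61, 5.35 and 5.47 in spleens. The groups did not overlap (1.27, SE 0.27; limma adjusted p = 0.003). Top2a lay at 6.20, 5.79 and 6.60 and at 5.48, 6.52 and 6.06, above all spleens (1.29, SE 0.32; limma adjusted p = 0.00859). Ezh2 lay at 7.13, 7.07 and 7.35 in B6g7 and between 6.44 and 7.41 in NOD infiltrates, against 5.88, 5.90, 6.02 and 5.88 in spleens, a difference of 1.14 (SE 0.22; limma adjusted p = 0.00111).

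Nek2 and Chek1 were higher in infiltrates than in spleen by 0.85 (SE 0.17; limma adjusted p = 0.00161) and 1.20 (SE 0.25; limma adjusted p = 0.00244), again without overlap. The other members higher in infiltrates were Kif11, Kif2c, Tacc3, Cenpa and Stmn1 of the spindle and kinetochore, Aurkb and Bub1, and Pola1 and Rrm1 of DNA synthesis, by 0.50 to 1.09. Kif11, Pola1 and Kif2c were at the level of absent transcripts in the spleens, and Tacc3 and Bub1 in both spleens and infiltrates. Plk1, at 6.23 to 7.12 in infiltrates, gave 0.02 (95% interval -0.51 to 0.56) by its brightest probe set, but its dimmer ones gave 0.37 (limma adjusted p = 0.0355) and 0.94 (limma adjusted p = 0.000913) and passed. Mki67, at 4.56 to 6.13, gave 0.56 (-0.43 to 1.56). Fen1 was lower by 0.80 (SE 0.14; limma adjusted p = 0.000541), with infiltrates at the level of absent transcripts. The difference between backgrounds in this contrast passed for 0 members (0.0242% of all genes; 0 members at an unadjusted p under 0.05). Infiltrates and spleens differed in makeup, with 5 of 6 B cell markers lower, 2 of 6 T cell markers lower and 3 of 7 macrophage markers higher in infiltrates, and the part of makeup in these differences was not tested.

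**Figure D4:**
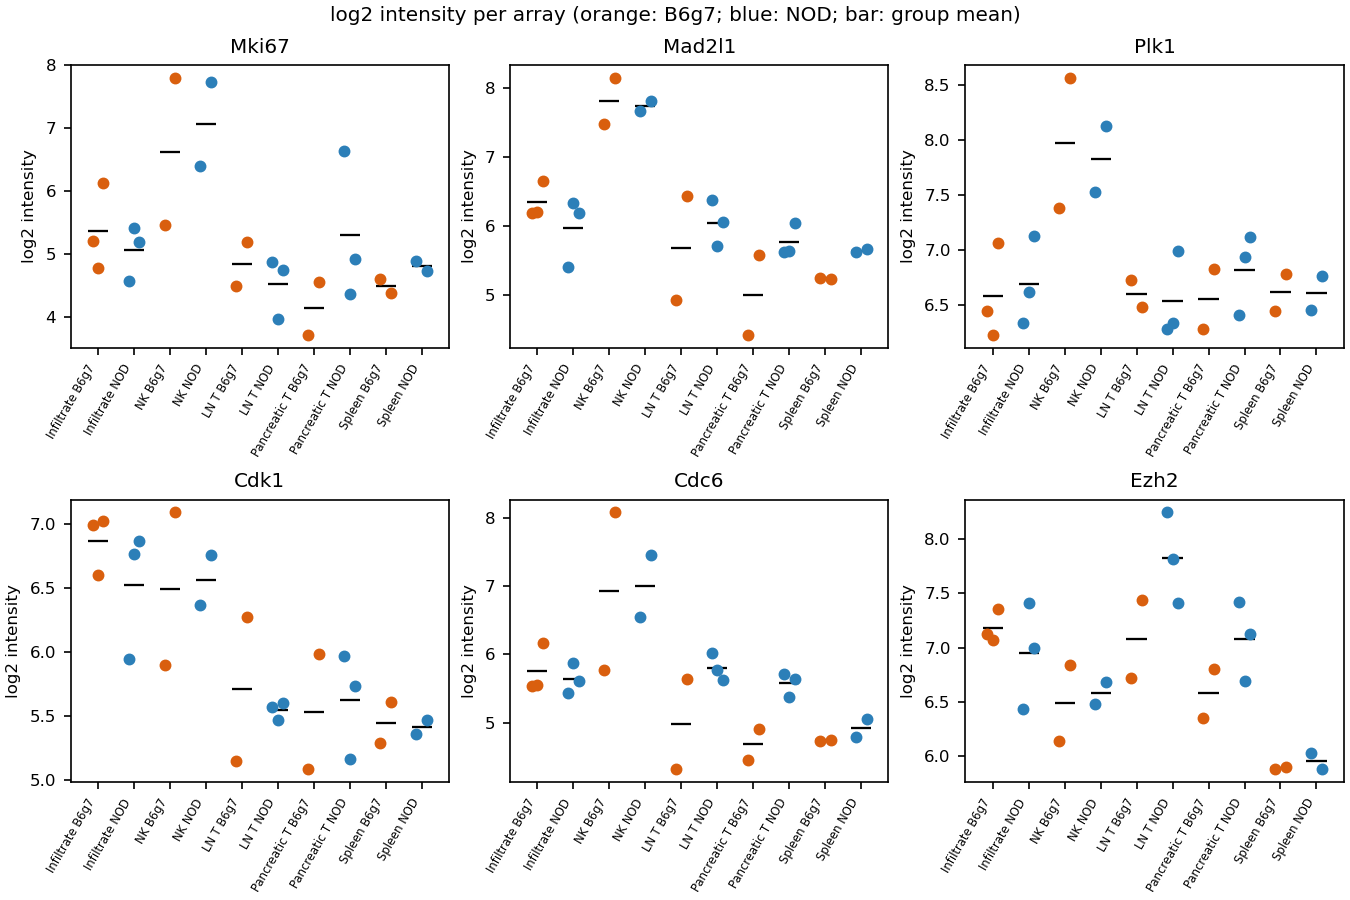
Log2 intensity (vertical axis) of 6 genes in each array of the 10 groups (horizontal axis), with orange dots for B6g7, blue for NOD and a bar for the group mean. Mad2l1 and Plk1 are highest in all 4 NK arrays, Cdk1 is high in infiltrates and NK cells, and Ezh2 is highest in NOD lymph node T cells and lowest in the spleens.

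Infiltrates were also compared with the T cells sorted from the pancreas. Here 4 members (9.09%) were higher and 0 lower (limma), near the share of all genes, of which 8.29% passed in either direction, 6.58% higher and 1.71% lower. With the replicate number as a block 0 members passed, as with the serial code block, array weights or the Gapdh covariate. How many of all genes passed in those fits is not given here. The median was 0.41 over the members, with 40 of 44 above 0, and -0.02 over all genes. Cdk1 lay at 5.08 and 5.98 (B6g7) and 5.97, 5.16 and 5.73 (NOD) in pancreatic T cells, lower than all infiltrates but the lowest (1.12, SE 0.26; limma adjusted p = 0.0112). Nek2 was higher in infiltrates by 0.58 (SE 0.16) with no overlap between the arrays, and Kif11 and Birc5 were higher by 0.87 (SE 0.21) and 0.61 (SE 0.15) over T cell means at the level of absent transcripts. Without the first B6g7 pancreatic T cell array, which holds liver transcripts, 0 passed, and without the second 7 did. Nek2 was also lost without any of 5 other arrays: B6g7 infiltrate 1 or 3, NOD infiltrate 2 or 3, or NOD pancreatic T cell array 1. Infiltrates hold more than T cells, and all 6 B cell markers, 4 of 5 NK and 5 of 7 macrophage markers were higher in them.

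Few members differed between lymph node T cells and spleen. In lymph node T cells 4 members were higher and 1 lower (limma), 11.4% of the members, where 19.4% of all genes passed in either direction, 9% higher and 10.4% lower. The median was 0.36 over S phase genes and 0.16 over mitosis genes, against 0.01 for all genes. Ezh2 lay at 6.72 and 7.44 (B6g7) and 8.25, 7.82 and 7.42 (NOD) in lymph node T cells, above all spleens, by 1.53 (SE 0.23; limma adjusted p = 0.000107). This call held under all 12 alternative settings and with any of the 9 arrays left out. Stmn1 lay at 7.93, 8.50, 8.85, 8.26 and 8.77 against 7.14, 6.84, 7.04 and 6.84 in spleens (1.46, SE 0.39; limma adjusted p = 0.0136), but its dimmer probe set gave 0.16. Prim1, the catalytic subunit of primase, lay at 3.87, 4.94, 5.02, 4.93 and 5.18 against 3.97, 3.69, 4.03 and 3.80, with only the first B6g7 array inside the spleen range, which is at the level of absent transcripts (0.85, SE 0.20; limma adjusted p = 0.00596). Chek1 was higher by 1.03 (SE 0.26) and Fen1 lower by 0.95 (SE 0.15).

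NK cells lay below lymph node T cells in Ezh2, at 6.13, 6.84, 6.48 and 6.68 (-0.92, SE 0.23; limma adjusted p = 0.0103). The T cell and NK ranges overlapped through the first B6g7 lymph node array. Mcm4, another helicase subunit, lay at 5.91, 6.55, 6.06 and 6.26 in NK cells against 6.06, 7.39, 7.96, 7.87 and 7.31 in these T cells, a difference of -1.03 that did not pass. The 2 members that passed as lower in NK cells than in these T cells were Ezh2 and Mcm7, and both have an E2F match in a window. Of the 13 higher members 10 had a window, and 1 of these, Cdc6, held an E2F match. Whether E2F matches go with the direction was not tested.

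No member passed the test between backgrounds. In each of the 5 populations 0 members passed between B6g7 and NOD (limma), where 0.279% (infiltrates), 0.0606% (spleens), 0.158% (pancreatic T cells), 0.133% (lymph node T cells) and 0.0364% (NK cells) of all genes passed. At an unadjusted p under 0.05 the counts were 1, 0, 5, 5 and 0 members. The share of all genes under this cutoff is not given here, so whether these counts are high cannot be read from them. RMA, the summary method named in the submitters' notes, is listed for all B6g7 and no NOD infiltrates, and for all NOD and no B6g7 arrays of pancreatic T cells and spleens. There, background and the listed processing cannot be told apart.

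Between aggressive and benign infiltrates the members differed by -0.81 to 0.56. Rrm2, the small subunit of ribonucleotide reductase, had the lowest value. It lay at 4.85, 4.80 and 5.35 in B6g7 and 5.26, 6.03 and 6.13 in NOD infiltrates, overlapping at B6g7 array 3 and NOD array 1 (-0.81, SE 0.31; limma adjusted p = 0.845). Rrm2 was lower in B6g7 in the other populations too, by 0.45 to 0.92, and passed in none. Mki67 gave 0.31 (95% interval -0.95 to 1.57), Cdk1 0.35 (-0.38 to 1.07) and Top2a 0.18 (-0.68 to 1.04); these intervals include differences of over 1 log2 unit. The first NOD infiltrate lay low, since 42 and 41 members were higher in NOD infiltrates 2 and 3 than in it. Of all genes 52.9% and 55.7% were. The second B6g7 infiltrate lay low as well. In B6g7 array 3, 40 members were higher than in it (51.2% of all genes), and 9 were higher in it than in array 1 (51.3% of all genes). The erythroid markers of the first NOD infiltrate summed to 14078, against 183 at the lowest among infiltrates.

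In T cells of the pancreas, 39 of 44 members lay lower in B6g7 than in NOD, with a median of -0.30 against -0.01 for all genes. The lowest adjusted p was that of Chek1, at 4.43 and 4.99 in B6g7 and 5.66, 6.58 and 6.04 in NOD, without overlap (-1.39, SE 0.36; limma adjusted p = 0.219). Mcm3, at 6.60 and 6.92 against 8.13, 7.47 and 7.97, differed by -1.09 (SE 0.34; limma adjusted p = 0.369). Mcm5, at 5.97 and 6.32 against 7.75, 6.92 and 6.97, differed by -1.07 (SE 0.40; limma adjusted p = 0.553). Prim1 lay at 3.80 and 4.10 against 4.86, 4.34 and 5.09 (-0.82, SE 0.27) and Mcm2 at 6.87 and 6.96 against 7.23, 7.93 and 7.40 (-0.60, SE 0.24). In all 5 genes no B6g7 array reached a NOD array, yet none passed over all probe sets. In this comparison the arrays did not overlap for 14 of 44 members and for 11.1% of all genes. Mki67 lay at 3.71 and 4.55 against 6.64, 4.37 and 4.92, where the first NOD array alone was high (-1.17, 95% interval -2.58 to 0.23).

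Lymph node T cells gave similar values for some of the helicase genes. Mcm3 lay at 7.31 and 7.23 in B6g7 and 8.50, 8.25 and 7.77 in NOD (-0.90, SE 0.34; limma adjusted p = 0.587), and Mcm5 at 6.29 and 6.73 against 7.79, 7.79 and 7.25 (-1.10, SE 0.40; limma adjusted p = 0.55). Rrm2 lay at 4.54 and 5.02 against 6.19, 5.42 and 5.48 (-0.92, SE 0.35). In these 3 genes, out of 44 members, the backgrounds did not overlap, while 23.3% of all genes did not. Prim1 and Ezh2 differed by -0.63 (SE 0.27) and -0.75 (SE 0.31), with overlap. Of the 20 S phase genes 15 lay lower in B6g7 lymph node T cells, with a median of -0.36, and of the 20 mitosis genes 11 (median -0.01). Mki67 gave 0.32 and Cdk1 0.16. In both T cell groups the first B6g7 array held liver transcripts and lower member levels than the second. Of the 44 members 39 were higher in the second lymph node array (median gap 0.50) and 41 in the second pancreatic array (0.37). Among all genes these shares were 55.3% and 63.5%, with median gaps of 0.04 and 0.15. The first NOD array of each site held liver transcripts as well. Compared with it, 15 and 20 members were higher in NOD lymph node arrays 2 and 3 (56.5% and 53.8% of all genes). In NOD pancreatic arrays 2 and 3, 20 and 27 members were higher than in array 1 (60.2% and 64.9% of all genes).

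**Figure D5:**
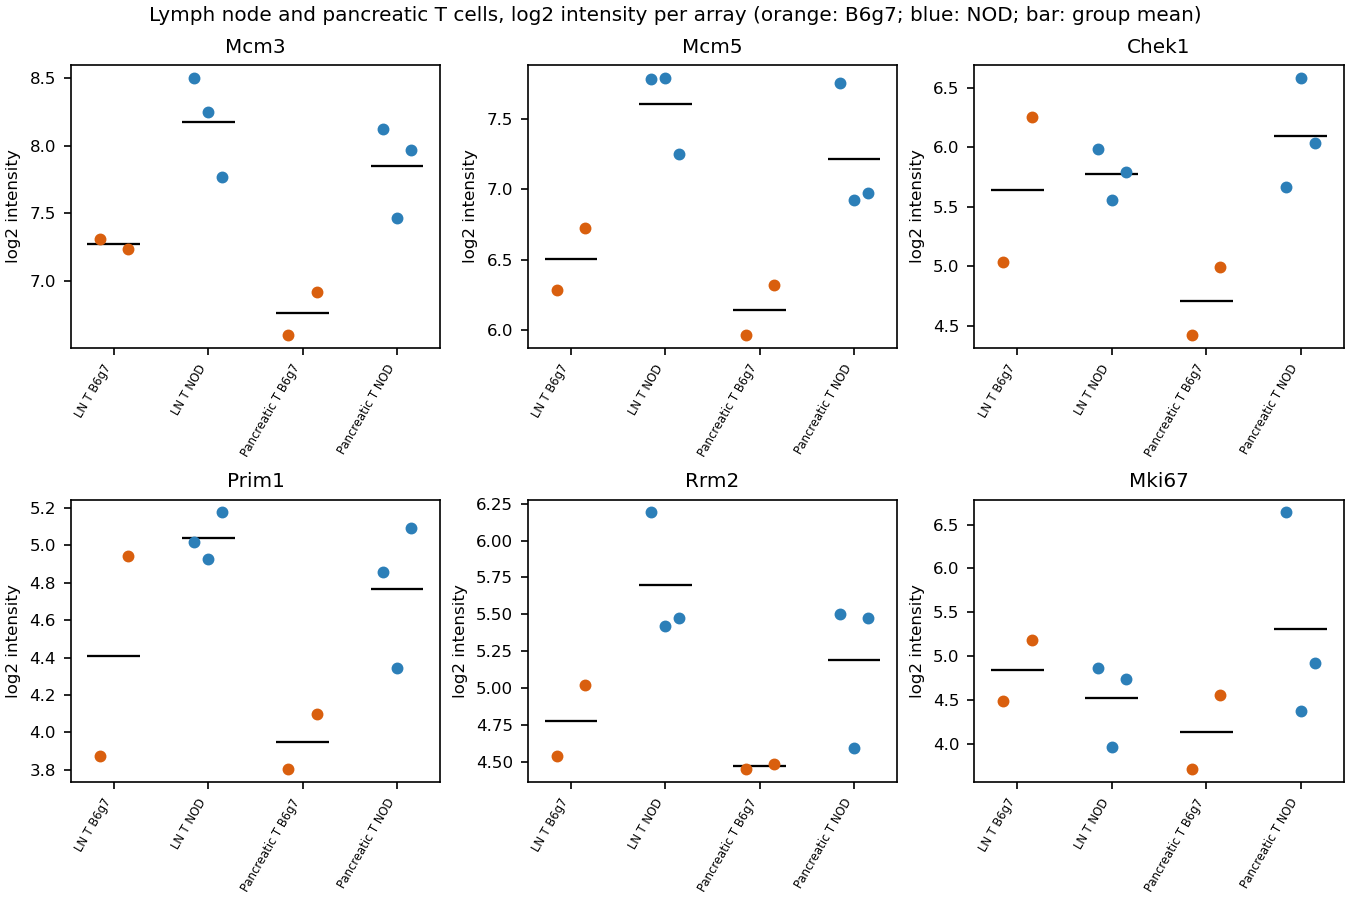
Log2 intensity (vertical axis) of 6 genes in each array of lymph node and pancreatic T cells (horizontal axis), with orange dots for B6g7, blue for NOD and a bar for the group mean. For Mcm3 and Mcm5 the B6g7 dots lie below all NOD dots at both sites; for Mki67 a single NOD pancreatic array, at 6.64, stands above the others.

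Between the pancreas and its lymph node, T cells of the same background differed in 0 members (limma), both in NOD (0.0242% of all genes passed) and in B6g7 (0% of all genes), as did the average of both (0%) and the difference between backgrounds (0%). These tests are unpaired, and with the replicate number as a block no count between sites changed from 0. At an unadjusted p under 0.05 there were 2 members in NOD, 1 in B6g7, 5 in the average and 1 in the difference, again without a share of all genes to set them against. Mcm4 had the lowest p in NOD, at 6.31, 5.45 and 7.62 in the pancreas and 7.96, 7.87 and 7.31 in the lymph node (-1.25, SE 0.42; limma adjusted p = 0.143). Pancreatic array 3 was within the lymph node range. Without that array, Mcm4 (-1.83; limma adjusted p = 0.00365) and Pcna (-1.52; limma adjusted p = 0.0498) passed in NOD, and Mcm4 in the average. Ezh2 lay at 7.42, 6.69 and 7.13 in the NOD pancreas and 8.25, 7.82 and 7.42 in the lymph node (-0.75, SE 0.27; limma adjusted p = 0.17). Chek1 in B6g7 lay at 4.43 and 4.99 in the pancreas and 5.03 and 6.25 in the lymph node (-0.93, SE 0.39; limma adjusted p = 1). Its site difference was 0.32 in NOD, and the difference of the differences was -1.25 (SE 0.50; limma adjusted p = 0.998). Mki67 was 0.78 higher in the pancreas in NOD and 0.71 lower in B6g7, and this contrast did not pass either (-1.49, SE 0.94). In the NOD pancreas array 1 alone was high, at 6.64, against 4.37 and 4.92 in arrays 2 and 3. The NOD lymph node held 4.87, 3.96 and 4.74.

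Pcna and Mcm5 of the fixed panel passed in no comparison, although their population means spanned about 1 log2 unit. Pcna lay at 7.67, 7.64 and 8.40 in B6g7 and 6.94, 7.56 and 8.22 in NOD infiltrates, at 7.70 and 7.98 and at 8.12, 6.49 and 9.28 in pancreatic T cells, and at 7.45 to 7.79 in spleens. NOD pancreatic T cells held the lowest of its 24 values as well as one close to the highest. Mcm5 was highest in spleens, at 8.03, 7.44, 7.73 and 7.75, but the first B6g7 and the second NOD infiltrate, at 8.04 and 8.05, reached the same level, and no comparison passed. E2f1 lay between 4.51 and 5.45 in all arrays outside NK cells. Ccne1, cyclin E1, Lig1, which seals nicks between Okazaki fragments, and Tk1, of the thymidine salvage path, kept all their group differences under the threshold.

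Cell cycle genes outside the member list were counted in the same way. Of 29 other mitosis genes 8 were higher and 3 lower in NK cells than in lymph node T cells, and of 35 other replication genes 1 and 1, where 17.3% of all genes passed. By the smallest adjusted p, these were Cdt1, which loads the helicase with Cdc6 (1.64, SE 0.19; limma adjusted p = 1.23e-05), Racgap1, of the central spindle (1.02, SE 0.13), and Nusap1, a spindle-binding protein (1.58, SE 0.27). On the lower side stood Btg2, an antiproliferative gene (-1.24), Ccnd2, cyclin D2 (-2.29), and Rpa3, of the single-strand binding complex (-1.20). Against spleen 13 of the 29 mitosis genes were higher and 1 lower in NK cells, and of the 35 replication genes 6 and 4, where 24.2% of all genes passed. By the smallest adjusted p, the higher ones included Nusap1 (2.12), with Cdt1 at 1.77 and Tfdp1, the dimer partner of E2F, at 1.58. Tubb5, Cdk2 and Rfc2 were lower, by 1.93, 0.71 and 0.91.

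In infiltrates 8 of the 29 other mitosis genes were higher and 2 lower than in spleen, with Cdca8 (0.92) and Nusap1 (1.08) among those higher. The 35 other replication genes split 1 and 3 (11.4% passed), with Rpa2 higher (0.93) and Chaf1b lower (-0.54). Of all genes 20.4% passed, 10.1% higher and 10.3% lower. Klf2, a quiescence factor of lymphocytes, was lower by 0.90 (SE 0.13; limma adjusted p = 0.000124). Myc was lower by 1.17, to an infiltrate mean of 4.02, at the level of absent transcripts. Klf2 was lower than spleen in lymph node T cells as well, by 1.17 (limma adjusted p = 1e-05), beside Pold1 and Dnmt1 (-1.01 and -0.67), while Smc4 of condensin, Ccng1 and Zwint were higher by 2.26, 1.22 and 0.94. These comparisons share the spleen arrays. Against pancreatic T cells, infiltrates were higher in Racgap1 (0.58), Btg2 (0.90) and Uhrf1 (0.56) and lower in Chaf1b (-0.42). Between backgrounds, 2 genes outside the list passed in pancreatic T cells, where 0.158% of all genes passed. Kif23, of the central spindle, was higher in B6g7 by 1.33 (SE 0.24; limma adjusted p = 0.0282), and Gadd45b, a stress-induced growth regulator, was lower by 1.24 (SE 0.22; limma adjusted p = 0.026).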

How the data were processed

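The values are probe set intensity on a linear scale, as the authors deposited them in 1 table for 24 arrays. RMA is named for 11 arrays in the submitters' processing notes; what was done to the other 13, and any version, is not stated here. Array medians ran from 35.1 to 39.1, and log2 was taken without a pseudocount (lowest intensity 5.70). Of 12488 probe sets 66 controls were left out and 12422 tested, and 10833 had 1 gene, 10817 of them through Entrez identifiers against RefSeq (GRCm38.p6). The number of arrays limits the precision.

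Means of 10 groups were fitted to all arrays with limma 3.58.1 under R 4.3.3, by lmFit and eBayes (14 residual degrees of freedom). The 15 comparisons were adjusted separately over 12422 probe sets (Benjamini-Hochberg, two-sided, 0.05); shares of all genes use 8251 genes. Contrasts of populations average both backgrounds. The fit was tested on simulated data.

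Members, roles, lists and tests were chosen with earlier results of these data known. Text values follow a rule: a panel of 9 genes (Mki67, Top2a, Cdk1, Ccnb1, Plk1, Pcna, Mcm5, Rrm2, E2f1), up to 5 members with the smallest adjusted p in each comparison, and up to 3 other cell cycle genes in each comparison and direction; other members were named after their values were seen.

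Same-numbered pancreatic and lymph node T cell arrays deviated together from their group means (correlations of 0.79 in B6g7 and 0.34, 0.36 and 0.29 in NOD). Those numbers were read as possible pairs and entered as a block in an alternative fit only. The tests reported between sites are unpaired. With 2 B6g7 arrays at each site, 0.79 is a single value, and the first array of both sites held liver transcripts. What a number stands for is not in the labels.

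Alternatives were quantile normalization, median centring, a filter on the 40% dimmest probe sets, a robust prior with a trend, array weights, only the compared groups, a replicate block, serial code runs as a block, the mean of a gene's probe sets, the 3′ to 5′ Gapdh difference or Alb as a covariate, and leaving out each array. Leaving out 6 arrays with liver transcripts, or both second NK arrays, was added after seeing the data.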

Additional observations from a re-analysis of the deposited data

How the results depend on the processing

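Group sizes of 2 or 3 arrays limit what these tests can show, and the counts of members past the threshold moved with several choices. With only the compared groups in the fit, 24 members passed between infiltrate and spleen, 1 between infiltrate and pancreatic T cells, and 9 between lymph node T cells and spleen. Array weights gave 23 and 0 for the first pair of comparisons. With the replicate number as a block, 23 and 0 passed there, and no T cell comparison between sites changed from 0; the block moved no other count by over 1.5 times. Infiltrate numbers were not taken as pairs (correlations of 0.42, 0.0033 and 0.54). With serial code runs as a random block (12 runs, correlation 0.56), 0 members passed between infiltrate and spleen, 0 between infiltrate and pancreatic T cells, 9 between NK and lymph node T cells, 8 between NK cells and spleen, and 2 between lymph node T cells and spleen. With the Gapdh difference as a covariate the counts were 2, 0, 1 and 1 for the first 4 of these, and 2 members changed sign between NK cells and spleen, Mcm7 to 0.25 and Aurkb to -0.051, neither passing. Without the 40% dimmest probe sets, which kept 32 of the 44 members, 3 passed between lymph node T cells and spleen. Without the 6 arrays with liver transcripts 1 passed between infiltrate and pancreatic T cells. Without both second NK arrays 3 passed against lymph node T cells and 8 against spleen. Causes of these shifts were not tested. Here and with arrays left out in turn, shares of all genes passing are not given. Whether the shifts are particular to the members cannot be read from the counts.

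With each array left out in turn, the count ran from 8 to 18 between infiltrate and spleen (lowest without the second B6g7 spleen), from 0 to 7 between infiltrate and pancreatic T cells, from 7 to 16 between NK and lymph node T cells and from 13 to 26 between NK cells and spleen (lowest for both without the second B6g7 NK array, with 8 and 14 without the second NOD one), and from 3 to 6 between lymph node T cells and spleen (lowest without the second B6g7 lymph node array). It ran from 0 to 2 between T cell sites in NOD and from 0 to 1 in their average, the highest without the third NOD pancreatic array. All other comparisons stayed at 0. Of 1326 values of called members under these alternatives, 1016 passed with the same sign, 308 did not pass and 2 changed sign.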
